A study of Mus musculus with 4 samples.

Results

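The proliferins are secreted glycoproteins of the prolactin family. In the mouse they are known as products of trophoblast giant cells of the placenta, where they act on blood vessel growth, and as growth-related genes of cultured mouse fibroblasts that respond to serum and growth factors. The family expanded by gene duplication, so that its members Prl2c2, Prl2c3 (also called Prl2c4) and Prl2c5 encode near-identical proteins, while proliferin-related protein (Prl7d1) is a more distant relative with the opposite effect on vessels. The insulin-like growth factor 2 and mannose 6-phosphate receptor (Igf2r) is known to bind proliferin, and AP-1 and the glucocorticoid receptor are known to act on a proliferin promoter.

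The genes were measured in mouse embryo fibroblasts (MEFs), which are primary connective tissue cells, with and without the stathmin gene STMN1, whose product destabilises microtubules. STMN1-/- MEFs carry a neomycin cassette that disrupts both alleles, and STMN1+/+ MEFs carry intact alleles. Both were on a C57BL/6 background, came from mid-gestation embryos of heterozygous matings, and were grown in serum without any further treatment. Each of 4 Agilent 2-color arrays of 60-base probes received RNA of both genotypes, with STMN1-/- RNA in Cy3 on arrays 1 and 2 and in Cy5 on arrays 3 and 4. Neither labels nor methods tie an array to an embryo, a culture or an extract, and the spread between arrays may therefore be technical.

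Proliferin probes were found by name, as probes that the array calls Prl2c, Plf or Mrpplf or describes as proliferin. This gave 3 of 19505 named genes and 7 of 41174 probes, with 3 for Prl2c3 (named Plf2 on the array), 2 for Prl2c5 (named Mrpplf4) and 2 for Prl7d1 (named Plfr on the array or given by a transcript identifier). The array holds 0 probes named for Prl2c2, and Prl2c4 is listed in RefSeq as a synonym of Prl2c3, so Prl2c4 is reported here as Prl2c3. The genes were chosen by their log2 ratios between the genotypes on these 4 arrays, so their ratios are a description and carry no test.

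Of the 41174 probes per array, 24457 to 25353 were well above background in STMN1-/- and 24785 to 25628 in STMN1+/+ channels. Over the 27669 probes kept for testing, the median log2 ratio per array was between -0.01 and 0.00. Log2 ratios of these kept probes correlated at 0.689 and 0.704 where arrays shared a dye orientation and at 0.445 to 0.490 where they did not. All 4 arrays were on 1 slide and in 1 scan, so no batch could be compared. The targeted gene was lower in the STMN1-/- channel on every array. Its probe A_52_P319161 gave log2 ratios of -2.24, -2.21, -2.14 and -2.03, and its probe A_51_P495641 gave -0.52, -0.46, -0.35 and -0.24. The study describes its array probe for this gene as flawed, since the sequence also matches a second site in the genome. It does not name which of the pair, so these ratios are not read as the amount of transcript left. By qRT-PCR and western blotting, the study reports no STMN1 mRNA or protein in STMN1-/- MEFs.

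Of the 7 probes, 4 were well above background in both genotypes on all 4 arrays. Their sequences are shown because near-identical genes can hybridise to each other's probes. One Prl2c3 probe and one Prl2c5 probe cover the same stretch of the messenger RNA, and capitals mark the bases in which they differ. Over 60 aligned columns they had 52 identical bases, 2 mismatches and 6 columns that are absent from the Prl2c5 probe. The position that the array lists for the Prl2c3 probe, in mouse build mm7, spans 935 bases of unplaced sequence (chrUn_random:1011041-1011975). The match of this 60-base probe is therefore split there. The Prl2c5 probe lies unbroken at chrUn_random:1535003-1535062.
Prl2c3 A_52_P84814: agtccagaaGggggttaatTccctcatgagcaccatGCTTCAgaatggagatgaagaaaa
Prl2c5 A_52_P619248: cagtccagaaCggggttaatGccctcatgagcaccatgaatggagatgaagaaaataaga

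The other probes of the pair of genes cover different stretches and are shown in lower case throughout. They also lie in unplaced mm7 sequence, A_51_P312779 at chrUn_random:1010844-1010903, A_51_P312780 at chrUn_random:1010745-1010804 and A_52_P511450 at chrUn_random:1534906-1534965. None of the 41167 probes outside the 7 shared a run of 20 bases with any Prl2c probe on either strand, and 3 shared a run of 15 bases. The transcript of Prl2c2 was not compared, and which of the near-identical transcripts hybridised to a given probe cannot be told apart.
Prl2c3 A_51_P312779: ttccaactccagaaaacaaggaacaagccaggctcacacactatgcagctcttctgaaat
Prl2c3 A_51_P312780: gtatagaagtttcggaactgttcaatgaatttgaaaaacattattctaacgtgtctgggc
Prl2c5 A_52_P511450: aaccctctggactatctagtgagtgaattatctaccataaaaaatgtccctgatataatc

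Proliferin transcripts were lower in STMN1-/- MEFs than in STMN1+/+ MEFs on every array. The mean log2 ratio of STMN1-/- over STMN1+/+ over the 4 bright Prl2c probes was -2.35 ± 0.04 (SD over arrays, n = 4), which is 5.10-fold lower in STMN1-/- MEFs. The 16 single values, 4 probes on 4 arrays, ran from 3.85-fold to 6.97-fold lower. In RNA from whole cultures, fewer cells that make a transcript and less of it per cell cannot be told apart.

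For the Prl2c3 probe A_52_P84814, the processed signal in STMN1+/+ MEFs was 2292, 2602, 2112 and 2080 arbitrary units on arrays 1 to 4. In STMN1-/- MEFs it was 407, 433, 303 and 359. The genotypes were well apart on every array, with the lowest STMN1+/+ signal 4.81-fold above the highest STMN1-/- signal. The log2 ratios were -2.49, -2.59, -2.80 and -2.53, a mean of -2.60 ± 0.14 (SD, n = 4) or 6.08-fold.

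The second bright Prl2c3 probe, A_51_P312779, gave STMN1+/+ signals of 1150, 971, 1014 and 1178 and STMN1-/- signals of 239, 253, 229 and 255. The STMN1-/- signals were close together (244 ± 12.1, SD, n = 4) and 3.81-fold or more below every STMN1+/+ signal. The log2 ratios of this probe were -2.26, -1.94, -2.15 and -2.21, with a mean of -2.14 ± 0.14 (SD, n = 4) or 4.41-fold.

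The probes named for Prl2c5 gave ratios in the same range as the bright Prl2c3 probes. For its probe A_52_P619248, which differs from the first Prl2c3 probe by the bases in capitals above, STMN1+/+ signals were 2431, 2333, 2322 and 2463 and STMN1-/- signals were 454, 418, 454 and 568. Array 4 held the highest STMN1-/- signal, which was still 4.09-fold below the lowest STMN1+/+ signal. Its log2 ratios were -2.42, -2.48, -2.36 and -2.12, a mean of -2.34 ± 0.16 (SD, n = 4) or 5.08-fold.

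The other Prl2c5 probe, A_52_P511450, had STMN1+/+ signals of 1187, 1429, 1289 and 1416 and STMN1-/- signals of 215, 279, 335 and 255. Its genotypes also did not overlap, with a gap of 3.54-fold. Its log2 ratios were -2.46, -2.36, -1.94 and -2.48, with a mean of -2.31 ± 0.25 (SD, n = 4), the widest spread of the 4 probes. Signals of all 4 bright probes were thus lower in STMN1-/- MEFs on every array. For scale, 12.4% of the 14962 named genes tested were called lower in STMN1-/- MEFs and 13.4% higher (limma, adjusted p under 0.05). These are shares of calls, and the share of all probes that were lower on every array is not given here. Nothing about the proliferins is read from the called shares because the genes were chosen on the same contrast.

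**Figure D1:**
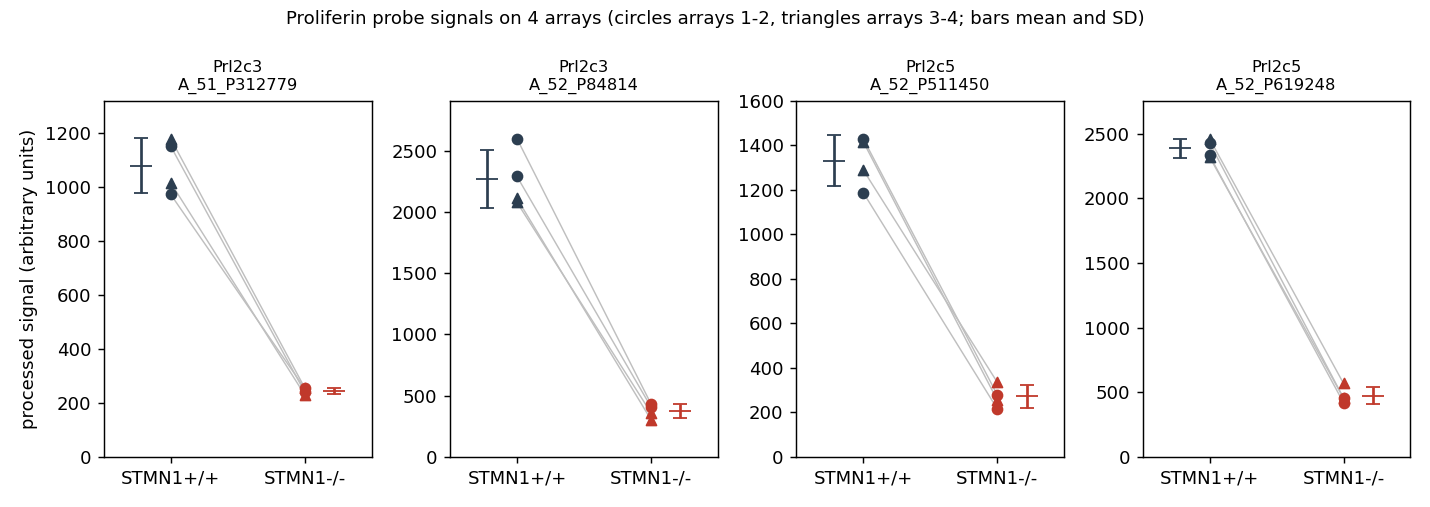
Processed signal (arbitrary units, linear axis from 0, a separate axis for each probe) of the 4 bright proliferin probes in STMN1+/+ and STMN1-/- MEFs. Circles are arrays 1 and 2, triangles arrays 3 and 4, lines join both genotypes of an array, and bars are the mean and SD over 4 arrays. In each panel every STMN1-/- point lies below every STMN1+/+ point, by 3.54-fold or more.

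Probes of the same gene and of its near-identical paralog gave like ratios. The mean log2 ratio was -2.37 over both bright Prl2c3 probes and -2.33 over both Prl2c5 probes. Within an array, the 4 probes spanned 0.23 log2 units on array 1, 0.65 on array 2, 0.86 on array 3 and 0.42 on array 4. The Prl2c3 probe A_52_P84814 had the lowest mean ratio and was the lowest of the 4 on every array. It lay below A_51_P312779 by 0.46 ± 0.22 log2 units (SD over arrays, n = 4), below A_52_P511450 by 0.29 ± 0.39 and below its counterpart A_52_P619248 by 0.26 ± 0.20. The Prl2c5 probes differed from each other by 0.03 ± 0.32, less than their spread over arrays.

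The dye orientation moved the ratios little. Mean log2 ratios with STMN1-/- RNA in Cy5 minus those with it in Cy3 were -0.13 for A_52_P84814, -0.07 for A_51_P312779, 0.20 for A_52_P511450 and 0.21 for A_52_P619248. Among the 27669 probes tested, ordered from the lowest mean log2 ratio, the 4 bright probes stood at places 13, 24, 26 and 35. Of 14959 named genes other than Prl2c3, Prl2c5 and Prl7d1, 18 had a mean log2 ratio at or below the proliferin mean. Prl3d2, another prolactin family gene, was among them at -2.39.

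The size of the ratios depended on how background was removed. With the normexp background model of limma, an offset of 50 and loess normalization, the mean log2 ratios were -1.10 for A_52_P84814, -0.80 for A_51_P312779, -1.16 for A_52_P619248 and -0.86 for A_52_P511450. This model placed the mean background of array 2 at -879 and -788 in its pair of channels, against -40.3 to 9.82 on the other arrays, and the ratios of that array shrank to between -0.17 and -0.06. Without an offset and without array 2, the means were -2.03, -1.63, -1.94 and -1.72 in the same order. The direction was the same on every array under each of these settings.

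**Figure D2:**
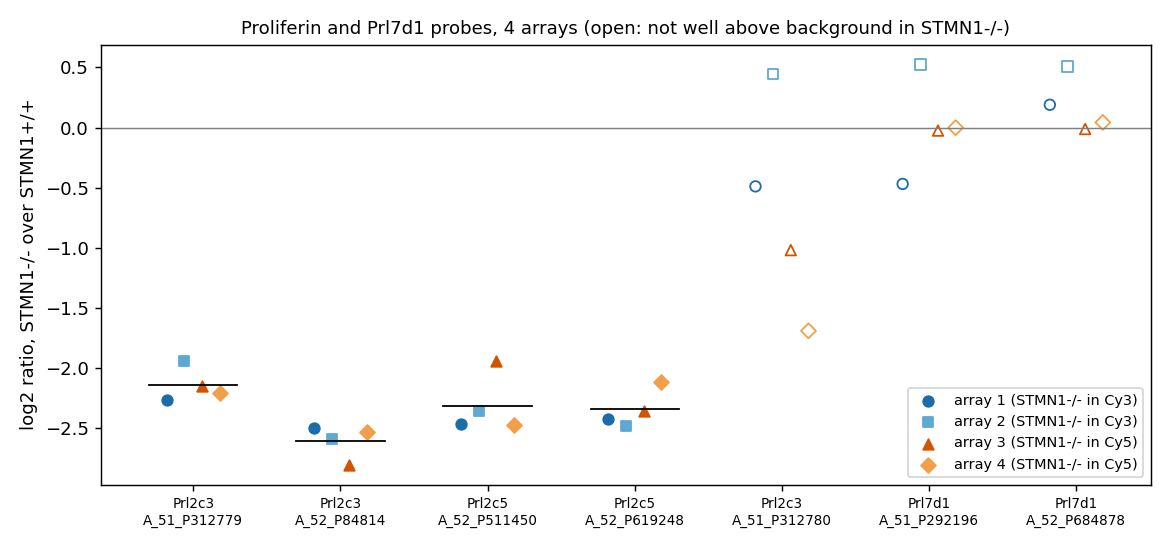
Log2 ratio of STMN1-/- over STMN1+/+ signal (y axis) for the 7 proliferin and Prl7d1 probes (x axis), with 1 point per array, shape and colour marking the array and its dye orientation. Horizontal lines are means over 4 arrays, and open points are probes that were not well above background in STMN1-/- MEFs, whose ratios give no fold. The 4 bright probes lie between -2.80 and -1.94 on all arrays.

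The other 3 probes gave no ratio that can be read. The third Prl2c3 probe, A_51_P312780, was not well above background in either genotype on any array, with STMN1+/+ signals of 43.7, 23.1, 51.0 and 83.1 and STMN1-/- signals of 31.1, 31.4, 25.2 and 25.8. Its listed mm7 position lies beside that of A_51_P312779 in the unplaced sequence, so neighbouring probes of Prl2c3 disagreed in whether they detected a transcript.

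Prl7d1, the proliferin-related gene, was at or near background in both genotypes. Its probe A_51_P292196 gave 144, 22.3, 26.4 and 27.9 in STMN1+/+ MEFs and 104, 32.0, 26.0 and 27.9 in STMN1-/- MEFs. It was well above background only in the STMN1+/+ channel of array 1, and it passed the filter on dim probes through that value alone. The second probe, A_52_P684878, ran from 21.0 to 24.5 in STMN1+/+ and from 23.4 to 29.9 in STMN1-/- MEFs, with no array well above background in either. Thus 5 of the 7 probes passed the filter, of which 4 were bright.

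The start regions of Prl2c3 and Prl2c5 are shown because probes named for each gave like ratios. Since the transcripts behind these probes cannot be told apart, the like ratios are not read as a shared response of separate genes. The sequences are the 250 bases before each start site in RefSeq, build GRCm38.p6, and the promoter table used here matched those genes and not Prl2c2. Capitals mark a TATATAA match and, in Prl2c3, a TGANTCA match, a loose search pattern for AP-1 sites that accepts any middle base. The match in Prl2c3 reads TGAATCA and is not shown to be an AP-1 site. Aligned over 250 columns, the regions had 241 identical bases (96.4%), 8 mismatches and 1 column with a gap.
Prl2c3 chr13:12800080-12800329, minus strand: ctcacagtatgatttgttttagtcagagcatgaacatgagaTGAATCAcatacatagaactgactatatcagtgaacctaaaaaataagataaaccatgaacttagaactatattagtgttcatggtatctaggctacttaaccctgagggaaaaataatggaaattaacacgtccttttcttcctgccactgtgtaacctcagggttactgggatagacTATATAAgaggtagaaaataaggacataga
Prl2c5 chr13:13182466-13182715, plus strand: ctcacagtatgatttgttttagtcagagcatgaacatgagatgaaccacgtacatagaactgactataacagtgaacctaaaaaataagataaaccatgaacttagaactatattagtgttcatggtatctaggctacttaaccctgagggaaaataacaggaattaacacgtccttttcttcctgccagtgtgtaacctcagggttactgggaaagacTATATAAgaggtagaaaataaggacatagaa

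TATATAA, searched on both strands, was found from -30 to -24 in Prl2c3 and from -31 to -25 in Prl2c5, counted from the start site, and in 3.6% of 27025 genes with a region of this length. TGANTCA was found from -209 to -203 in Prl2c3, was not found in the Prl2c5 window, and occurred in 7.8% of genes. AGAACA, a glucocorticoid receptor half-site, occurred in 18.2% of genes and in neither of these windows. The matches did not overlap each other. They describe letters in these windows and say nothing of whether a factor was bound.

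Most of the other prolactin family genes that could be measured were also lower in STMN1-/- MEFs. Of 22 genes in the list, 21 had a probe and 16 of these were well above background in neither genotype on any array. Of the 5 tested, 4 fell and 0 rose, with a median log2 ratio of -0.80 against 0.01 over all tested genes. That is 80% lower and 0% higher, beside 12.4% and 13.4% of all tested genes. Prl3d2, a placental lactogen gene, had a mean log2 ratio of -2.39 (limma, 4 arrays, SE 0.14, adjusted p = 0.00121), but in STMN1-/- MEFs it stood well above background on only 2 of 4 arrays. Its mean log2 ratio was -0.62 under normexp and -1.06 under normexp without an offset. Prl3a1 fell by 0.84 (SE 0.08, adjusted p = 0.00318). Prl3d1, another placental lactogen, fell by 0.80 (SE 0.11, adjusted p = 0.00891), and Prl, prolactin itself, fell by 0.45 (SE 0.08, adjusted p = 0.0172). The probes of Prl3d1 and Prl3d2 were not compared in sequence, so whether they read separate transcripts was not tested. Prl3b1, the later placental lactogen, was at a log2 ratio of -0.04 (adjusted p = 0.763) and is named after its value was seen. With normexp, with or without the offset, 0 of the 5 were called, and the study's plain test against zero called 2. Without array 3 or array 4 the count was 3, with Prl no longer called.

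The list of 16 receptors and signalling genes was drawn by class, and not each member is known to act for prolactin family hormones. All 16 were tested, 4 rose and 2 fell, with a median log2 ratio of 0.12. These are 25% and 12.5% of the list, against 13.4% and 12.4% of all tested genes. Jak1, a kinase on the list that was not called, was represented by a probe with a value on only 1 array. Without Jak1 the median over 15 genes was 0.13. Igf2r, which binds proliferin, rose 1.55-fold in STMN1-/- MEFs (log2 ratio 0.63, SE 0.08, adjusted p = 0.00789) and was higher on each array, from 0.47 to 0.78. Prlr, the prolactin receptor, did not pass the test, at 0.15 (SE 0.17, adjusted p = 0.585). Ghr, the growth hormone receptor, fell by 0.55 (SE 0.06, adjusted p = 0.00442). Among the feedback inhibitors on the list, Socs2 fell by 0.50 (SE 0.08, adjusted p = 0.0145) and Socs3 rose by 0.46 (SE 0.08, adjusted p = 0.0161). The count of 6 called genes became 3 without array 2 and 3 without array 4. Socs2 lost its call without array 2 and under the study's plain test, and Socs3 lost it without array 1, 2 or 4 and under that test.

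Of 12 regulators of the AP-1 and steroid receptor class, 2 rose, 3 fell and 7 did not pass, with a median log2 ratio of -0.09. The list was drawn by class, and not each member is known to act on a proliferin promoter. The list's shares were 16.7% higher and 25% lower, against 13.4% and 12.4% of all tested genes. Fosl1, a Fos family partner of Jun, fell by 0.77 log2 units (SE 0.07, adjusted p = 0.00273). Jun itself fell by 0.54 (SE 0.06, adjusted p = 0.00599). Jdp2, which dimerises with Jun and represses, rose by 0.57 (SE 0.05, adjusted p = 0.00340). Nr3c1, the glucocorticoid receptor, fell by 0.39 (SE 0.07, adjusted p = 0.0186). The count of 5 became 3 without array 1, 2 or 3, and 3 under normexp without an offset. Nr3c1 lost its call whichever array was left out, under normexp without an offset and under the study's plain test.

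Of 14 genes that serum induces in fibroblasts, a response in which proliferins are known to take part, 7 fell and 2 rose, and 5 did not pass, with a median log2 ratio of -0.27. That is 50% lower and 14.3% higher, beside 12.4% and 13.4% of all tested genes. Myc, a growth regulator, fell by 0.77 log2 units (SE 0.06, adjusted p = 0.00178) and Ier3, an early response gene, fell by 0.72 (SE 0.06, adjusted p = 0.00215). Egr2, an early response transcription factor, rose by 0.83 (SE 0.06, adjusted p = 0.00187). The list's members thus moved in both directions, and each of those 3 kept its call under every alternative run. For scale, with any 1 array left out 1001 to 1144 of all tested genes were called higher and 858 to 998 lower, against 2006 and 1849 with 4 arrays.

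**Figure D3:**
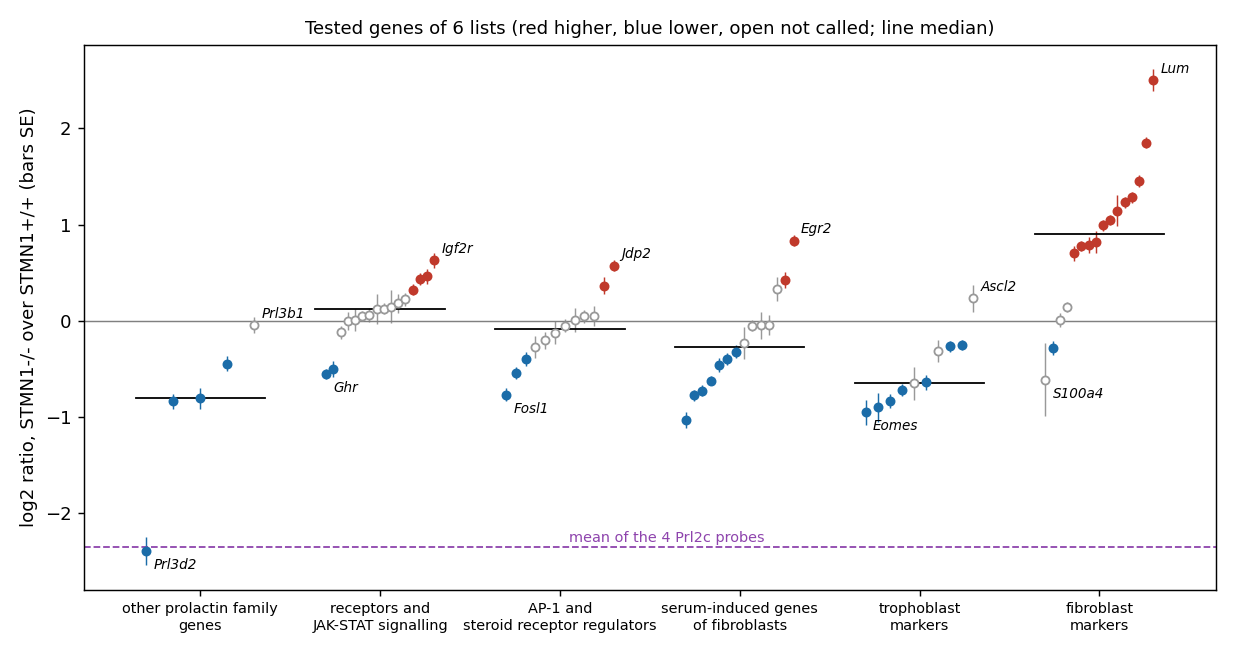
Log2 ratio of STMN1-/- over STMN1+/+ (y axis) for the tested genes of 6 lists (x axis), with bars for the SE of the fit over 4 arrays, except for Junb and Twist1 with 3 arrays and Jak1 with 1. Red points were called higher, blue points lower and open points not called (limma, adjusted p under 0.05), short lines are list medians, and the dashed line is the mean of the 4 bright Prl2c probes at -2.35. Among the genes shown, Prl3d2 alone lies near that line, at -2.39.

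Trophoblast is another cell type known to make proliferins. Of its 23 markers 22 had a probe, and 12 of these were well above background in neither genotype. Of the 10 tested, 7 fell, 0 rose and 3 did not pass, with a median log2 ratio of -0.64. Peg10 and Hand1 passed the filter on dim probes only through STMN1+/+ signals, and of the other 8 tested markers 6 fell and 2 did not pass. Among all tested genes 12.4% fell. Of the 5 defining markers, Cdx2, Elf5, Tpbpa and Gcm1 were never well above background in either genotype, with mean signals between 23.2 and 32.2. Eomes alone was measured, at 278 in STMN1-/- and 513 in STMN1+/+ MEFs, and fell by 0.95 (SE 0.13, adjusted p = 0.00940). Gata2 fell by 0.83 (SE 0.08, adjusted p = 0.00320) and the epithelial keratin Krt7 fell by 0.72 (SE 0.06, adjusted p = 0.00273). Peg10 passed the test, but no array showed it well above background in STMN1-/- MEFs. The summed signal of the list ran from 58258 to 66270 in STMN1-/- and from 78961 to 84863 in STMN1+/+ MEFs. Most of it came from 3 keratins, named here for the size of their signals. Mean signals in STMN1-/- and STMN1+/+ MEFs were 29413 and 35048 for Krt18, 15333 and 18404 for Krt8, and 10317 and 17016 for Krt7. The sum is therefore mainly a keratin signal, and the part of these markers in the proliferin ratios was not tested. The count of 7 became 4 without array 4 and 3 under normexp, where Eomes and Peg10 were no longer called and the log2 ratio of Eomes was -0.29. Eomes also lost its call under the study's plain test, and Peg10 without array 4, under that test and in 1 of the dye-swap pairings.

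The labelled cell type was checked against fibroblast markers, which were present in both genotypes and mostly higher in STMN1-/- MEFs. Of 16 fibroblast markers, 15 were well above background in both genotypes on every array, and 12 rose, 1 fell and 3 did not pass, with a median log2 ratio of 0.90. That is 75% higher, beside 13.4% of all tested genes. Lum, a matrix proteoglycan, rose 5.66-fold (log2 ratio 2.50, SE 0.11, adjusted p = 0.000796). Postn, periostin, rose 3.61-fold (log2 ratio 1.85) and Fap, a fibroblast surface protease, 2.74-fold (log2 ratio 1.45, and 0.76 under normexp). For Postn, the study's own qRT-PCR went in the opposite direction to its arrays, lower in STMN1-/- MEFs. The collagen I chains Col1a1 and Col1a2 rose by 1.28 and 1.14 on the log2 scale and Thy1, a surface marker, rose by 0.78. Col1a2 lost its call under the study's plain test. Vim, the intermediate filament vimentin, fell by 0.28 (adjusted p = 0.0488), a call that was lost when any array was left out. The summed signal of the list ran from 4766333 to 7244336 in STMN1-/- and from 4115313 to 4775525 in STMN1+/+ MEFs, so the ranges overlapped. Its largest signals in STMN1-/- and STMN1+/+ MEFs were S100a4 (1484580 and 2072325) and Col1a2 (1361329 and 619167). S100a4, named here for the size of its signal, had a log2 ratio of -0.61 and was not called. The part of these markers in the proliferin ratios was not tested.

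The genes beside the proliferins on chromosome 13 had ratios close to 0 in comparison. By the RefSeq order of genes, 0 other protein-coding genes lie between Prl2c3, Prl2c2 and Prl2c5. Of the 5 nearest tested genes on either side, 1 of 10 was called higher, 1 lower and 8 were not called, with log2 ratios from -0.34 to 0.55, beside 13.4% higher and 12.4% lower among all tested genes. Lyst, a regulator of lysosomes, rose by 0.34 (SE 0.06, adjusted p = 0.0174). Ero1b, an oxidase of the endoplasmic reticulum, fell by 0.34 (SE 0.07, adjusted p = 0.0267). Both calls were lost without array 2, 3 or 4 and under normexp. Ero1b also lost its call without array 1, without a filter on dim probes and under the study's plain test. These 10 genes were chosen by map order after the data were open.

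**Figure D4:**
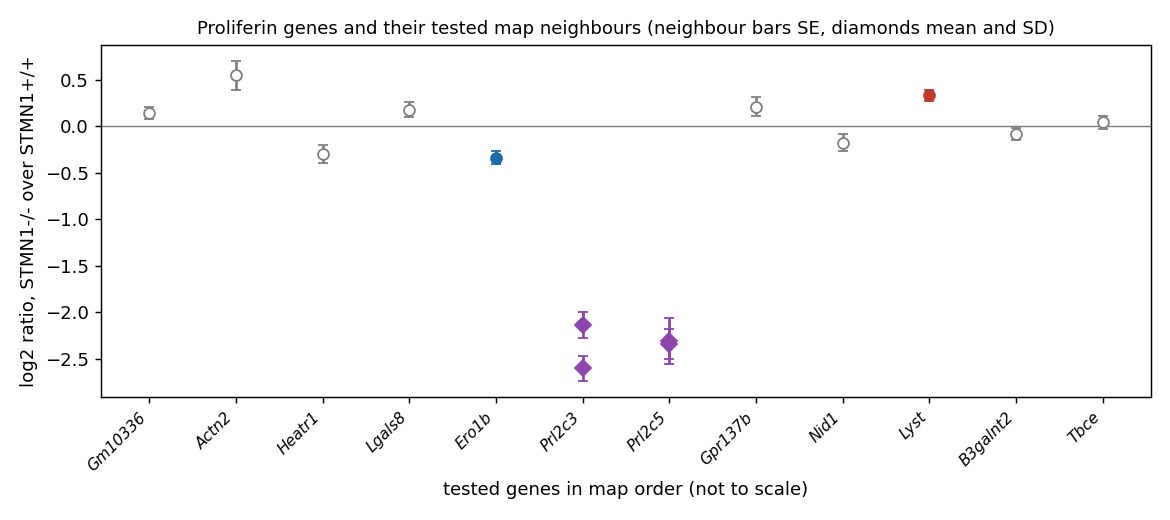
Log2 ratio of STMN1-/- over STMN1+/+ (y axis) for the proliferin genes and the 5 nearest tested genes on each side, in map order and not to scale (x axis). Circles are neighbours with their SE, filled where called, and diamonds are the 4 bright proliferin probes with their mean and SD over 4 arrays. The neighbours lie between -0.34 and 0.55, and the diamonds between -2.60 and -2.14.

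Among the 5 named genes whose ratios lay nearest to the proliferin mean on the 4 arrays were 6430590A10Rik, Dynap, Lce1h and Lce1g. Likeness was measured as the root mean square difference in log2 ratio over the 4 arrays, which was 0.11 for 6430590A10Rik, 0.17 for Dynap, 0.20 for Lce1h and 0.25 for Lce1g. For 6430590A10Rik no array had a STMN1-/- signal well above background, so its ratio is not a measured one. Mean log2 ratios were -2.20 for Dynap, -2.39 for Lce1h and -2.59 for Lce1g. The Lce1 genes encode proteins of the cornified envelope of skin.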

How the data were processed

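The deposited intensity values are processed signals of Agilent Feature Extraction 9.5.3.1, which the authors ran with a spatially detrended background, LOWESS correction for dye and surrogates in place of dim signals. The same deposited files hold log10 ratios of Cy5 over Cy3 signals. The authors' deposited list of 7090 probes holds log2 ratios from GeneSpring GX, whose means correlated at 0.9998 with those computed here. A second, shorter list was not used.

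Control and outlier spots were left out, spots of a probe were averaged, and log2 ratios of processed signals were turned to STMN1-/- over STMN1+/+. A probe was kept if at least 1 array had it well above background in 1 channel or both, which left 27669. They were named through RefSeq (GRCm38.p6) by accession (17990), symbol (4053) or synonym (1889), and 3737 stayed unnamed. A gene is represented by its brightest probe. The test of each ratio against 0 used limma 3.58.1 under R 4.3.3 (two-sided, Benjamini-Hochberg over all tested probes, threshold 0.05), after a test on simulated data. Sequences were aligned with Biopython 1.88 and figures drawn with matplotlib 3.10.9. The number of arrays limits the precision.

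The genes and all lists were chosen with earlier results of these data known. Named genes are every proliferin probe, up to 4 called genes of each list by size of ratio, Igf2r and Prlr, defining cell type markers, and the 5 genes with the nearest ratios. Exceptions are stated, and 2 genes that the rule names are not reported here.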

Additional observations from a re-analysis of the deposited data

Results flagged for a closer look

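The Prl7d1 probe A_51_P292196 stood apart on array 1 in both channels. The gap from array 1 to the nearest other array was 0.923 of the whole range in the STMN1-/- channel (104 against 32.0, 26.0 and 27.9) and 0.954 of the range in the STMN1+/+ channel (144 against 22.3, 26.4 and 27.9), above Dixon's critical value for 4 values. Both channels of an array share its spots. Of 36 sets of 4 values that were checked these were the only ones past that value, and chance alone passes about 1 set in 20.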

How the results depend on the processing

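With any 1 array left out, the mean log2 ratios of the 4 bright proliferin probes lay between -2.64 and -2.10. Leaving out 1 of 4 arrays cannot move a mean by 1 SD, and a balanced dye term leaves it as it is, so these fits do not test the size of the ratios. With normexp and loess their mean log2 ratios were -0.80 (A_51_P312779), -0.86 (A_52_P511450), -1.16 (A_52_P619248) and -1.10 (A_52_P84814), and with no offset, a setting chosen after seeing the data, -1.24, -1.31, -1.50 and -1.56. The fitted background of array 2 accounts for part of this shrinkage, and the cause of the rest was not tested. With normexp, 805 of all genes were called higher and 827 lower, with 0 other prolactins and 3 trophoblast markers. With no offset the counts were 613 and 578, with 0 other prolactins, 3 AP-1 and steroid receptor regulators and 3 trophoblast markers. A dye effect in the fit gave 3248 higher and 3036 lower, and no filter on dim probes 1285 and 1141. The plain t-test against zero gave 1389 and 1208, with 2 other prolactins and 3 AP-1 and steroid receptor regulators. It was rerun here after the study's description, and its calls are not those of the study's own list. Leaving out 1 array gave 1001 to 1144 genes higher and 858 to 998 lower, 3 to 4 receptors and signalling genes, 3 to 4 AP-1 and steroid receptor regulators and 4 to 6 trophoblast markers. These fits hold fewer arrays. Treating the arrays as dye-swap pairs, in either pairing, moved no count by 1.5 times. Of 29 called genes taken by the naming rule or by map order, 16 kept their call under every alternative run and 0 reversed, with 53 calls lost in 461 fits. No paired analysis over replicate numbers was possible because each array holds both genotypes.

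The measurement is limited by signal over background for Prl7d1 and for 1 Prl2c3 probe, by the absence of a named Prl2c2 probe, and by near-identical transcripts. The labels do not tie arrays to embryos or cell lines, and p-values measure the spread between these 4 arrays.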
